A study of Mus musculus with 6 samples.

Results

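The crypt-labelled libraries were set against the villus-labelled libraries of the same mice, which took in 6 of the 6 libraries of the series, 3 of each label. Each library held single cells of the jejunal epithelium of male Wildtype C57BL/6J mice about 30 weeks old, and cells of several mice were pooled before capture, so a pool of mice gave 1 library of either label. The LFD sham pool came from 3 mice kept on a low-fat diet, the HFD sham pool from 3 mice on a high-fat diet and the HFD VSG pool from 2 mice on a high-fat diet that had undergone vertical sleeve gastrectomy (VSG), the removal of most of the stomach. The mice of the other 2 pools had sham surgery. Diets ran for 16 weeks before surgery, and tissue was taken 5 weeks after it. The fractions were parted by EDTA treatment, scraping and a cell strainer. A barcode is the tag of 1 droplet, and a UMI (unique molecular identifier) is the tag of 1 captured RNA molecule. Of 59457 barcodes called as cells, 26696 had at least 750 genes and at most 20% mitochondrial UMIs, and the UMIs of these barcodes were summed in each library and scaled to CPM, the count of a gene per 1000000 UMIs of the library.

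Epithelial cells of the small intestine arise in the crypts, where stem cells divide at the base among Paneth cells, which secrete lysozyme and defensins. Their daughters divide several times, take an absorptive or a secretory fate, and migrate up the villus, where enterocytes carry digestive enzymes and transporters on their brush border and package dietary fat into chylomicrons. Enterocytes change on the way, from antimicrobial genes low on the villus to purine-handling and cell-shedding genes at its tip. A crypt preparation is therefore known for stem, Paneth and dividing cells, and a villus preparation for mature enterocytes.

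At the limits on genes and mitochondrial UMIs given above, the markers went against the labels in every pool. In the passing barcodes, genes of stem cells, Paneth cells and dividing cells were at higher summed levels in the villus-labelled library of each pool, and genes of brush border digestion, fat absorption and the villus tip in the crypt-labelled library. *Olfm4*, the most abundant of the stem cell markers examined, stood at 74.6, 96.2 and 131 CPM in the crypt-labelled libraries (LFD sham first, then HFD sham, then HFD VSG) and at 470.2, 178 and 436 CPM in the villus-labelled libraries. *Apoa4*, an apolipoprotein of chylomicrons, stood in the same order of pools at 5668, 7082 and 9549.6 CPM in the crypt-labelled and 1438, 2961 and 1047 CPM in the villus-labelled libraries. With at most 10% mitochondrial UMIs, stem cell and Paneth cell genes of HFD VSG turned to the crypt-labelled side. Their summed levels were then 1107 against 995 CPM and 58593 against 21714 CPM, crypt-labelled first. Mitosis, brush border, fat absorption and villus-tip genes kept their side in every pool. The libraries are named here by their deposited labels throughout. Whether the labels match the fractions was not tested, and exchanged labels would turn the sign of every fold change given here. In what follows, values of 3 libraries are always in the order LFD sham, HFD sham, HFD VSG.

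The 6 libraries held 38767388 to 144932811 UMIs in passing barcodes, and the HFD VSG villus-labelled library was the deepest, with a median of 30895 UMIs per barcode against 9202 to 16733.5 in the other 5. The median share of mitochondrial UMIs was 12.8%, 11.7% and 12.3% in the crypt-labelled and 9.90%, 10.9% and 7.11% in the villus-labelled libraries. Between 2 and 13 passing barcodes had the same sequence in any 2 libraries. From these sums alone, fewer cells of a type and less RNA per cell could not be told apart.

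Genes were tested with edgeR's quasi-likelihood test with the pool as a block, and a gene was called at a Benjamini-Hochberg adjusted p under 0.05. Fold changes are log2 of crypt-labelled over villus-labelled, so that a negative value means a higher level in the villus-labelled libraries. They are given ± SE of the edgeR fit to the 3 pairs, in which the spread of a gene is moderated over all genes. The 3 pools differed in diet and surgery and each held 1 library of either label. The p-values therefore measure the spread of the paired difference between these pools. Whether a difference belonged to a single pool could not be tested. Of 14327 genes tested, 3245 (22.6%) were called higher in the crypt-labelled and 2939 (20.5%) higher in the villus-labelled libraries. Calls thus took in 43.2% of the genes tested, and the count of any gene group has to be read against this share. The paired ratio had the same sign in the 3 pools for 10019 genes (69.9%), among them 5744 of the 6184 genes called. The ratio of CPM was above 1 on the log2 scale in every pool for 157 genes (1.10%) and below -1 in every pool for 1245 genes (8.69%). Across genes, the paired ratios of LFD sham and HFD VSG had a Spearman rho of 0.85, those of LFD sham and HFD sham 0.69 and those of HFD sham and HFD VSG 0.59, over 14327 genes that share libraries and are not independent. The median fold change over all genes was 0.01 with TMM scaling and -0.28 with scaling to library totals, and the crypt-labelled share of the calls moved with it, from 52.5% to 24.7%.

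The genes with the largest differences on the crypt-labelled side included *Ada*, *Nt5e* and *Slc28a2*, which belong to the villus-tip list described further on. Ranked by fold change among called genes with a mean of at least 20 CPM and the same sign in every pool, the first 10 were *Pmp22*, *Clca4a*, *Ada*, *Ly6m*, *Cubn*, *Susd2*, *Enpp3*, *Nt5e*, *Slc28a2* and *Selenop*. *Pmp22*, a membrane protein best known from myelin, led them, with 226, 269 and 241 CPM in the crypt-labelled and 49.8, 31.6 and 12.4 CPM in the villus-labelled libraries (3.47 ± 0.41, adjusted p = 0.00354). *Selenop*, the secreted selenium carrier, stood at 3941, 2592 and 4112 CPM against 955, 918 and 387 CPM (2.60 ± 0.38, adjusted p = 0.00197). For each of the 10 genes the 3 crypt-labelled libraries lay above the 3 villus-labelled libraries without overlap, as they did for 14.7% of all genes tested. *Cubn*, the cubilin receptor, and *Clca4a*, a chloride channel regulator, had adjusted p = 0.0451 and 0.03, and were not called under scaling to library totals, at 0.0679 and 0.0586 respectively. A cluster of 2694 barcodes, left unnamed because genes of damaged droplets such as *Gm42418* and *Lars2* were among its leading genes, was also led by *Pmp22*, *Clca4a*, *Enpp3*, *Cubn* and *Ada*. It held 1277, 857 and 277 barcodes of the crypt-labelled and 113, 167 and 3 of the villus-labelled libraries, at a median depth 0.453 times that of their libraries, and its part in these differences was not tested. Within enterocyte-like cells, a class without that cluster, *Pmp22*, *Clca4a* and *Ada* also stood higher in the crypt-labelled libraries, as given further on. They are themselves leading genes of clusters of that class, so this is a description. Such a cluster, led by *Ly6m* and *Nt5e*, held 373, 257 and 269 barcodes of the crypt-labelled and 142, 47 and 13 of the villus-labelled libraries.

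The leading genes on the villus-labelled side were *Ube2c*, *Defa23*, *Gm14851*, *Spink4*, *Cdca3*, *Ifitm2*, *Pclaf*, *Kcne3*, *Agr2* and *Ccl9*. *Ube2c* belongs to the mitosis list and *Spink4*, *Agr2* and *Ccl9* to the goblet cell list, and *Defa23* is a defensin of Paneth cells. *Ube2c*, the ubiquitin-conjugating enzyme of the anaphase-promoting complex, stood at 10.6, 12.7 and 15.8 CPM in the crypt-labelled and 67.9, 31.3 and 88.6 CPM in the villus-labelled libraries (-1.88 ± 0.31, adjusted p = 0.00769, and 0.1 without the HFD VSG pair). *Pclaf*, a PCNA-binding factor of replicating cells, stood at 8.58, 7.38 and 13.1 CPM against 42.6, 19.7 and 61.0 CPM (-1.70 ± 0.20, adjusted p = 0.00116). All 10 were without overlap between the fractions, as were 36.4% of all genes in this direction. Fold changes were smaller on this side, from -1.88 to -1.68, against 2.60 to 3.47 on the other. With at most 10% mitochondrial UMIs in place of 20%, 6 of the 10 were no longer called, at -0.82 for *Defa23* (adjusted p = 0.441), -0.76 for *Gm14851* (0.401), -0.76 for *Spink4* (0.267), -0.89 for *Cdca3* (0.0501), -0.70 for *Agr2* (0.245) and -0.75 for *Ccl9* (0.515). *Cdca3* and *Kcne3* also lost their call without the HFD VSG pair (0.107 and 0.05). *Kcne3* was among the leading genes of a cluster of 2193 barcodes, left unnamed because no class had enough of its markers. It held 58, 47 and 238 barcodes of the crypt-labelled and 280, 234 and 1336 of the villus-labelled libraries. That cluster lay outside every class compared, and its part in these differences was not tested.

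**Figure D1:**
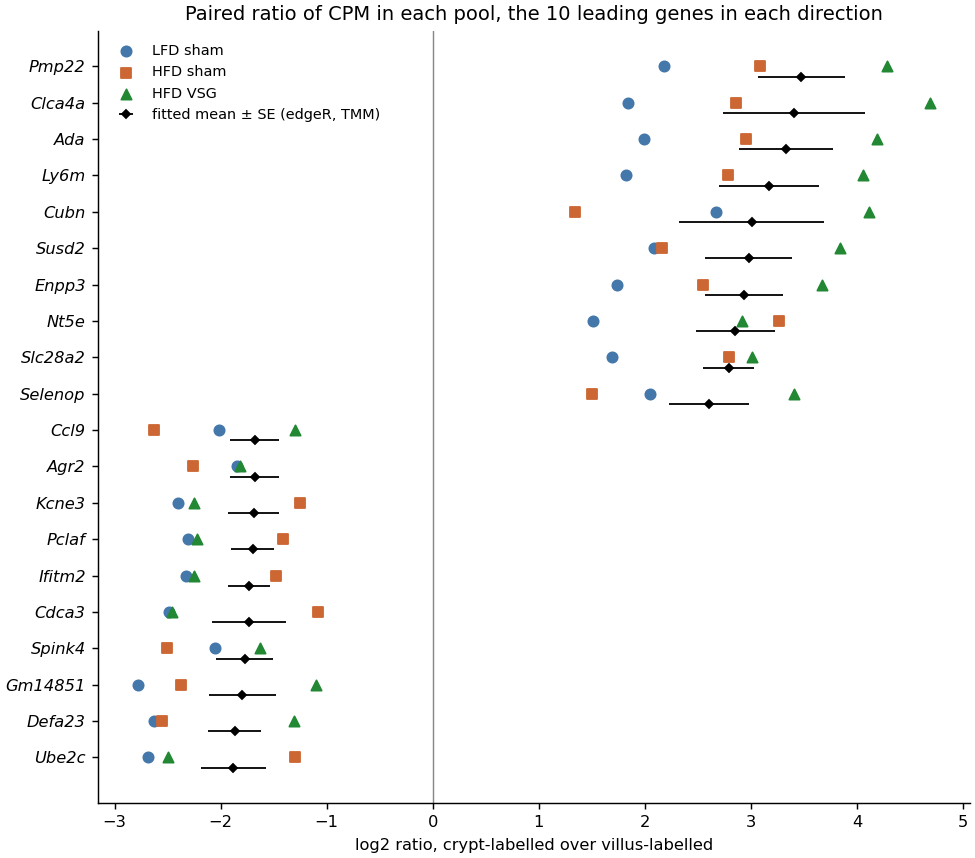
Paired log2 ratio of CPM, crypt-labelled over villus-labelled, for the 10 leading genes in each direction (x axis, log2 units, and 1 row per gene). Coloured points are the 3 pools and black diamonds the edgeR estimate ± SE from the 3 pairs. Every point of a gene lies on the same side of 0, and the HFD VSG pair is farthest from 0 for *Pmp22*, *Clca4a* and *Ada*, at 4.29, 4.69 and 4.19.

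Stem cell genes of the crypt base were higher in the villus-labelled libraries. Of 19 genes of the list, 16 were called higher there, 0 were called higher in the crypt-labelled libraries, and the median fold change was -1.22, beside 0.01 over all genes. With at most 10% mitochondrial UMIs edgeR called 0 of the 19, with 5 at an unadjusted p under 0.05. Their summed level was 235, 239 and 348 CPM in the crypt-labelled and 1083, 499 and 889 CPM in the villus-labelled libraries, which is 4.62, 2.09 and 2.55 times as much in the villus-labelled library of each pool. *Lgr5*, the receptor of R-spondins that marks cycling stem cells (chromosome 10, 115450311-115587780 in GRCm38), was at low levels, 3.12, 2.71 and 4.93 CPM against 13.4, 5.02 and 9.35 CPM (-1.01 ± 0.23, adjusted p = 0.00866). The paired ratio of *Lgr5* in the HFD sham pool, -0.89 on the log2 scale, had an exact 95% interval of -1.23 to -0.56 for counting error alone. Every villus-labelled library lay above every crypt-labelled library, but the HFD sham villus-labelled library was only slightly above the HFD VSG crypt-labelled one. The call for *Lgr5* was lost without the HFD VSG pair (adjusted p = 0.0554) and without the LFD sham pair (0.0872). For *Olfm4*, a secreted glycoprotein of stem cells (chromosome 14, 79984081-80023139), the values above gave -1.47 ± 0.32 (adjusted p = 0.0117, and 0.149 without the HFD VSG pair). *Slc12a2*, an ion cotransporter of crypt cells, gave -1.35 ± 0.21 (adjusted p = 0.00219), the transcription factor *Sox9* -1.33 ± 0.15 (adjusted p = 0.00108) and the surface marker *Prom1* -0.99 ± 0.17 (adjusted p = 0.00276). At 10% these fell short of a call, with -0.35 for *Slc12a2* (adjusted p = 0.459), -0.52 for *Sox9* (0.175) and -0.26 for *Prom1* (0.404). The 3 members not called were *Tnfrsf19*, *Axin2* and *Rnf43*. *Axin2* and *Rnf43*, both feedback inhibitors of Wnt signalling, had fold changes of -0.34 ± 0.15 and -0.02 ± 0.14.

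Genes of cell division showed the same direction. Of 25 mitosis genes, 24 were called higher in the villus-labelled libraries and 0 in the crypt-labelled ones, with a median of -1.53 and summed levels of 263, 296 and 343 CPM in the crypt-labelled and 1348, 639 and 1188 CPM in the villus-labelled libraries. *Mki67*, the proliferation antigen Ki-67, stood at 34.6, 38.3 and 41.1 CPM against 208, 96.6 and 95.4 CPM (-1.42 ± 0.25, adjusted p = 0.00484). *Top2a*, the topoisomerase that untangles replicated DNA, gave -1.45 ± 0.20 (adjusted p = 0.00175) and the chromatin protein *Hmgb2* -1.33 ± 0.24 (adjusted p = 0.00339). Under a limit of 10% mitochondrial UMIs edgeR called 4 of the 25, and *Mki67* (-0.52, adjusted p = 0.419), *Top2a* (-0.53, 0.248) and *Hmgb2* (-0.70, 0.0745) were not among them. The smallest gap between the fractions was in the HFD sham pool, where the villus-labelled library held 2.16 times the summed level of the crypt-labelled one, against 5.12 times in LFD sham and 3.46 times in HFD VSG.

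DNA replication genes followed less evenly. Of 25 members, 21 were called higher in the villus-labelled and 0 in the crypt-labelled libraries by edgeR and by DESeq2 (median -1.33), and with at most 10% mitochondrial UMIs edgeR called 1, with 17 at an unadjusted p under 0.05. *Mcm6*, a subunit of the replicative helicase, gave -0.91 ± 0.15 (adjusted p = 0.00263), whereas *Pcna*, the sliding clamp, stood at 43.7, 47.7 and 43.5 CPM against 61.4, 56.9 and 72.3 CPM and was not called with TMM scaling (-0.20 ± 0.17, adjusted p = 0.357). *Slbp*, which binds histone mRNA, and *Rfc2*, a clamp loader subunit, were not called either, with -0.07 ± 0.16 and -0.39 ± 0.19. With library size scaling *Pcna* was called at -0.49 (adjusted p = 0.0378) and *Rfc2* at -0.68 (0.0275), and *Rfc2* also without the HFD sham pair (0.00195). These 4 genes are the most abundant of the list.

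Genes that make and equip ribosomes were also higher in the villus-labelled libraries. Of 16 nucleolar and ribosome assembly genes, 15 were called higher there (median -1.29), and of 83 tested genes of cytosolic ribosomal proteins 77 (median -0.93), with 0 of either list called higher in the crypt-labelled libraries by edgeR or DESeq2. With at most 10% mitochondrial UMIs in place of 20%, edgeR called 7 of the 16 and 0 of the 83, with 14 and 63 at an unadjusted p under 0.05. The medians of the lists were then -0.59 and -0.61, and their summed levels stayed higher in the villus-labelled library of each pool. *Ncl*, the nucleolar protein nucleolin, stood at 199.9, 179.7 and 205 CPM in the crypt-labelled and 599, 353 and 477 CPM in the villus-labelled libraries (-0.97 ± 0.21, adjusted p = 0.00648, and 0.0779 without the LFD sham pair). *Fbl*, the methyltransferase fibrillarin, gave -1.43 ± 0.17 (adjusted p = 0.00116) and kept its call under every alternative tried. The ribosomal protein genes together took 43795, 53476 and 73997 CPM in the crypt-labelled and 108078, 92524 and 226898 CPM in the villus-labelled libraries, most of all in the HFD VSG villus-labelled library. The calls of *Rpl13*, *Rps12* and *Rplp1*, which are among the most abundant of them, were lost without the HFD VSG pair (adjusted p = 0.0664, 0.0911 and 0.114) and without the LFD sham pair (0.117, 0.152 and 0.136), and DESeq2 did not call *Rplp1* (0.259).

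**Figure D2:**
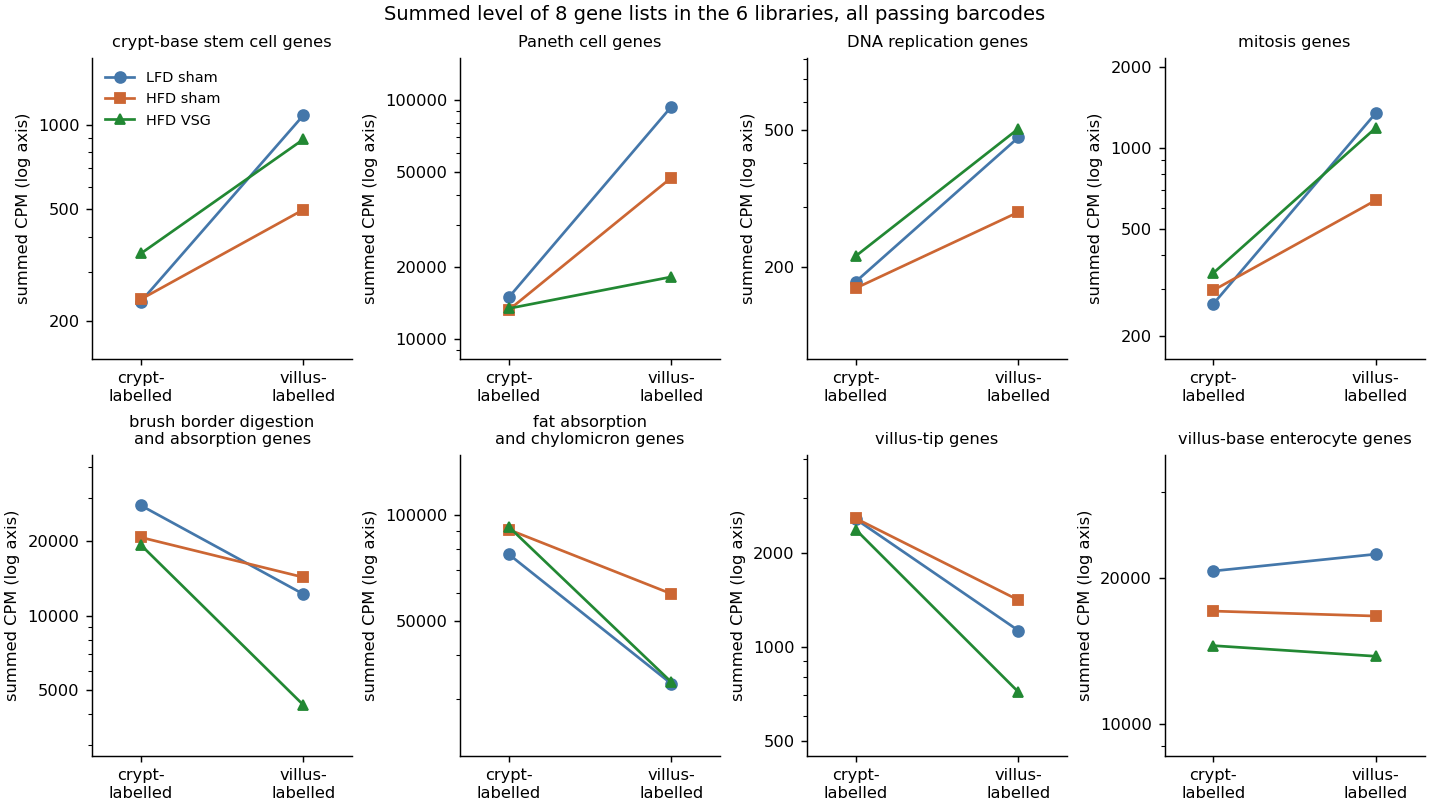
Summed CPM of 8 gene lists (y axes, logarithmic, each panel on its own scale) in the crypt-labelled and villus-labelled library of each pool (x axes), with a line joining the libraries of a pool. The 4 crypt lists of the upper row go up from crypt-labelled to villus-labelled in every pool, the brush border, fat absorption and villus-tip lists go down, and the villus-base list differs little.

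Paneth cell genes gave the largest gap in the LFD sham pool and the smallest in HFD VSG. The 19 genes together took 14877, 13173 and 13368 CPM in the crypt-labelled and 93264, 47085 and 18116 CPM in the villus-labelled libraries, or 6.27, 3.57 and 1.36 times as much in the villus-labelled library. Of them 11 were called higher in the villus-labelled and 0 in the crypt-labelled libraries (median -1.37). When mitochondrial UMIs were limited to 10%, edgeR called 0 of the 19, 0 had an unadjusted p under 0.05, and the median was -0.35, with the HFD VSG pool turned to the crypt-labelled side. *Lyz1*, the Paneth cell lysozyme (chromosome 10, 117287797-117292868), stood at 1223, 1236 and 1297 CPM against 7767, 4573 and 1332 CPM and was not called (-1.26 ± 0.49, adjusted p = 0.0787). Its HFD VSG libraries were almost level, and without that pair it was called (adjusted p = 0.0308). It was also called without the HFD sham pair (0.036), in all called barcodes (0.0368), with immune-like barcodes left out (0.0309) and after thinning to 1500 UMIs (0.0475). *Defa24*, the most abundant defensin of the list, stood at 6558, 5831 and 5573 CPM against 42233, 21209 and 8146 CPM (-1.41 ± 0.42, adjusted p = 0.0232, and 0.232 without the LFD sham pair). *Defa30* gave -1.53 ± 0.39 (adjusted p = 0.0126, and 0.113 without the LFD sham pair). DESeq2 called neither *Defa24* (-1.44, adjusted p = 0.268) nor *Defa30* (-1.56, adjusted p = 0.213), and edgeR neither at 10% (0.707 and 0.608). By edgeR *Defa22* was not called (-0.88 ± 0.45, adjusted p = 0.16), but it was without the HFD VSG pair (-1.61, adjusted p = 0.0304). The defensin genes are near-identical copies, so the assignment of reads to each copy, and with it the values of single defensins, are uncertain.

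The regulators that set secretory fate were at low levels and 6 of 10 were called higher in the villus-labelled libraries, 0 in the crypt-labelled ones (median -1.20). With at most 10% mitochondrial UMIs edgeR called 0 of the 10, with 2 at an unadjusted p under 0.05. *Sox4*, a transcription factor of early progenitors, stood at 11.8, 8.69 and 17.5 CPM in the crypt-labelled and 64.5, 23.8 and 50.9 CPM in the villus-labelled libraries (-1.52 ± 0.19, adjusted p = 0.00116, and 0.166 at 10%). *Hes1*, the target of Notch that holds cells to the absorptive fate, was also called higher there (-0.95 ± 0.18, adjusted p = 0.00393, and 0.0587 at 10%). The Notch ligand *Dll1* and *Hes6* were not called (0.12 ± 0.16 and -0.04 ± 0.14). The other 4 called were *Atoh1*, *Spdef*, *Gfi1* and *Notch1*, the first 3 of them factors of secretory cells.

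Goblet cell genes divided into called and uncalled members. The 13 genes summed to 5989.8, 3483 and 4249.9 CPM in the crypt-labelled and 10786, 10579.8 and 7784 CPM in the villus-labelled libraries, and 8 were called higher in the villus-labelled libraries (median -1.04). Under a limit of 10% mitochondrial UMIs edgeR called 0 of the 13, *Spink4* and *Agr2* included, 0 had an unadjusted p under 0.05, and the median was -0.22, with the summed level higher in the crypt-labelled library of LFD sham and HFD VSG. *Spink4*, a secreted protease inhibitor, stood at 563, 366 and 533 CPM against 2339.9, 2085 and 1652 CPM (-1.77 ± 0.27, adjusted p = 0.00202). *Agr2*, the disulfide isomerase needed to make mucin, stood at 261, 182 and 227 CPM against 936, 871 and 801 CPM (-1.68 ± 0.23, adjusted p = 0.00149). By contrast, *Muc2*, the gel-forming mucin itself, stood at 618, 349.9 and 403 CPM against 856, 784 and 415 CPM and was not called (-0.26 ± 0.26, adjusted p = 0.435). *Fcgbp*, *Zg16* and *Clca1*, which encode other proteins of the mucus layer, were not called either, with -0.20 ± 0.29, -0.46 ± 0.30 and -0.26 ± 0.29 (*Zg16* was called with library size scaling, at -0.75 and adjusted p = 0.0452), while *Tff3*, the trefoil peptide, was (-1.04 ± 0.27, adjusted p = 0.0142, and 0.0707 without the HFD VSG pair).

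Of 14 tuft cell genes tested, 5 were called by edgeR, beside 43.2% of all genes, and 8 by DESeq2. By edgeR 4 were higher in the villus-labelled libraries and 1, *Ltc4s* of leukotriene synthesis, in the crypt-labelled ones (0.97 ± 0.18, adjusted p = 0.00375, and 0.0505 without the HFD VSG pair). *Dclk1*, the kinase that marks tuft cells, stood at 7.09, 2.63 and 4.26 CPM against 18.6, 22.6 and 6.50 CPM and was not called by edgeR (-1.36 ± 0.64, adjusted p = 0.207). It was called higher in the villus-labelled libraries by DESeq2 (adjusted p = 0.00267), and by edgeR with immune-like barcodes left out (0.0398) and without the HFD sham pair (-0.69, adjusted p = 0.0016). Among 18 enteroendocrine genes DESeq2 called 2 higher in the crypt-labelled and 3 in the villus-labelled libraries, and edgeR 1 in each direction, *Tph1* of serotonin synthesis in the crypt-labelled (1.26 ± 0.33, adjusted p = 0.0206) and *Tac1*, the tachykinin precursor, in the villus-labelled libraries (-0.98 ± 0.24, adjusted p = 0.011). *Chga*, the granule protein chromogranin A, stood at 27.1, 38.3 and 21.5 CPM against 58.4, 29.6 and 11.5 CPM, with the higher level in the villus-labelled library of LFD sham and in the crypt-labelled library of the other 2 pools (0.36 ± 0.42, adjusted p = 0.546, and called at 0.86 without the LFD sham pair, adjusted p = 0.0103).

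Receptors that position cells on the crypt axis split by member. Among 9 Eph receptors and ephrins, *Ephb2*, *Ephb3*, *Ephb4*, *Epha4* and *Efna4* were called higher in the villus-labelled and *Epha2* and *Efna1* in the crypt-labelled libraries. With at most 10% mitochondrial UMIs edgeR called 1 of the 9 in each direction, with 5 at an unadjusted p under 0.05. *Ephb2*, the receptor graded from the crypt base upward, stood at 7.06, 6.81 and 9.82 CPM against 26.0, 15.9 and 21.1 CPM (-1.11 ± 0.16, adjusted p = 0.00175). *Epha2* stood at 23.1, 23.7 and 20.3 CPM against 11.2, 16.8 and 8.06 CPM (1.25 ± 0.18, adjusted p = 0.00158). *Efnb1* and *Efnb2*, the ligands known from the villus, were not called (0.26 ± 0.16 and 0.08 ± 0.16). *Efna1* had the smaller of the 2 differences toward the crypt-labelled side (0.64 ± 0.17, adjusted p = 0.0148) and lost its call without the HFD VSG pair (0.12) and without the LFD sham pair (0.203).

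Most genes of a mixed Bmp and Hedgehog list were called higher in the crypt-labelled libraries at the limit of 20% mitochondrial UMIs, and 0 of 8 in either direction at 10% (edgeR, with 3 at an unadjusted p under 0.05). Bmp signalling is known to rise toward the villus. Of 8 genes tested, 6 were called higher in the crypt-labelled libraries (median 0.72), and *Bambi*, a decoy receptor also induced by Wnt, was called higher in the villus-labelled ones (2.45, 2.14 and 1.92 CPM against 11.3, 7.87 and 4.14 CPM, -1.44 ± 0.22, adjusted p = 0.00202). *Id1*, a direct Bmp target, stood at 136, 121 and 154 CPM against 67.8, 81.7 and 119.8 CPM (0.94 ± 0.20, adjusted p = 0.00668, and 0.107 without the LFD sham pair). The inhibitory *Smad7* gave 1.03 ± 0.15 (adjusted p = 0.00198). At 10% the adjusted p of *Bambi*, *Id1* and *Smad7* was 0.478, 0.297 and 0.0606. *Id3* was not called (0.39 ± 0.20, adjusted p = 0.144). *Shh* was below the level tested.

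Transcription factors of the absorptive lineage had a share of calls in either direction near that over all genes, 43.2%. Of 16 factors, edgeR called 8 higher in the crypt-labelled and 0 in the villus-labelled libraries (median 0.57), beside 22.6% and 20.5% of all genes. DESeq2 called 10 and 1. When mitochondrial UMIs were limited to 10%, edgeR called 2 and 0. *Maf*, a factor of mature enterocytes, stood at 819, 605 and 638 CPM in the crypt-labelled and 336, 423 and 159.5 CPM in the villus-labelled libraries (1.56 ± 0.29, adjusted p = 0.00373). *Klf4*, of post-mitotic cells, stood at 354, 300.1 and 314 CPM against 152, 187 and 79.2 CPM (1.59 ± 0.25, adjusted p = 0.00226). *Klf5*, its counterpart in dividing crypt cells, stood at 403, 404 and 455 CPM against 489, 517 and 549 CPM and was not called (-0.01 ± 0.21, adjusted p = 0.971). *Cdx2* and *Hnf4a*, which act along the whole axis, were not called (0.09 ± 0.16 and 0.43 ± 0.17), whereas *Hnf4g* and *Creb3l3*, an activator of apolipoprotein genes, were (1.01 ± 0.25, adjusted p = 0.0118, and 1.14 ± 0.23, adjusted p = 0.00489). The calls of both were lost without the HFD VSG pair (0.111 and 0.0503) and without the LFD sham pair (0.0753 and 0.056), and with at most 10% mitochondrial UMIs (0.0591 and 0.068).

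Every gene of brush border digestion and absorption was higher in the crypt-labelled libraries. All 20 members were tested and called in that direction, with a median of 1.63 and single fold changes of 1.02 to 2.30. Their summed level was 27876, 20722 and 19308 CPM in the crypt-labelled and 12234, 14304 and 4367 CPM in the villus-labelled libraries. *Sis*, the sucrase-isomaltase (chromosome 3, 72888557-72967863), stood at 8038, 4660.1 and 5490.0 CPM against 4007, 3739.7 and 1288 CPM (1.43 ± 0.37, adjusted p = 0.0129, and 0.121 without the HFD VSG pair). The HFD sham pair was close, with the crypt-labelled library of that pool only a little above the villus-labelled library of LFD sham. *Mgam*, the maltase-glucoamylase, gave 1.55 ± 0.35 (adjusted p = 0.00738), the glucose transporter *Slc5a1* 1.60 ± 0.31 (adjusted p = 0.00423) and the aminopeptidase *Anpep* 1.47 ± 0.32 (adjusted p = 0.00633), and these 3 also lost their calls without the HFD VSG pair (0.0762, 0.0514 and 0.0677). The largest differences of the list were those of the peptide transporter *Slc15a1* and of lactase, *Lct* (2.30 ± 0.38 and 2.20 ± 0.37).

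Fat absorption and chylomicron genes followed the brush border genes, with 18 of 21 called higher in the crypt-labelled and 0 in the villus-labelled libraries (median 1.44). The list took 77495, 91053 and 92729 CPM in the crypt-labelled and 33271, 59860.0 and 33630.4 CPM in the villus-labelled libraries. For *Apoa4* (chromosome 9, 46240696-46243459) the values given above amount to 2.43 ± 0.40 (adjusted p = 0.0025), a call kept under every alternative tried. *Apoc2*, the cofactor of lipoprotein lipase, stood at 1243, 2382 and 3621 CPM against 363, 1025 and 471 CPM (2.27 ± 0.35, adjusted p = 0.00211). The 3 members that edgeR did not call were *Fabp1*, *Plin2* and *Scarb1*, and DESeq2 called 19 of the 21. *Fabp1*, the liver-type fatty acid binding protein, stood at 15072, 15695 and 17179 CPM against 10017, 14598 and 13229 CPM (0.65 ± 0.33, adjusted p = 0.136 by edgeR, and 0.00191 by DESeq2, which called it), a narrower gap than that of *Fabp2*, the intestinal type, at 20646, 29732 and 24117 CPM against 7864, 16915 and 8166 CPM (1.55 ± 0.35, adjusted p = 0.00737, 0.0745 without the HFD VSG pair and 0.0917 without the LFD sham pair). The 2 genes were not tested against each other.

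Villus-tip genes were higher in the crypt-labelled libraries. Of 9 genes, 7 were called higher in the crypt-labelled libraries (median 1.59), and *Egfr* and *Pkib* were not called (0.30 ± 0.18 and 0.11 ± 0.38). *Ada*, adenosine deaminase, which turns adenosine into inosine (chromosome 2, 163726584-163750239), stood at 213, 279.6 and 142 CPM in the crypt-labelled and 53.6, 36.2 and 7.78 CPM in the villus-labelled libraries (3.33 ± 0.45, adjusted p = 0.00656). *Nt5e*, the ecto-nucleotidase that makes adenosine, stood at 31.7, 45.9 and 38.2 CPM against 11.1, 4.78 and 5.09 CPM (2.85 ± 0.37, adjusted p = 0.00658, and 0.13 without the HFD VSG pair). *Slc28a2*, the purine nucleoside transporter, stood at 63.0, 49.5 and 28.5 CPM against 19.5, 7.15 and 3.53 CPM (2.79 ± 0.24, adjusted p = 0.00103). The crypt-labelled libraries lay above the villus-labelled ones without overlap for these 3 genes of purine handling and for the keratin *Krt20* (1.62 ± 0.27, adjusted p = 0.00274). Of 17 genes that the study lists as markers of its *Ada* cluster, 16 were called higher in the crypt-labelled libraries (median 1.73). That list was chosen on these libraries and is not independent evidence.

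Villus-base enterocyte genes were mostly not called by edgeR. The 13 genes summed to 20641, 17073 and 14495 CPM in the crypt-labelled and 22355, 16679 and 13786 CPM in the villus-labelled libraries, edgeR called 4 higher in the villus-labelled and 0 in the crypt-labelled libraries, and the median was 0.16. DESeq2 called 4 in each direction. *Lypd8*, which keeps bacteria off the epithelium, stood at 501, 578 and 858 CPM against 996, 1139 and 1952 CPM (-0.76 ± 0.24, adjusted p = 0.0302, 0.083 without the HFD VSG pair and 0.162 without the LFD sham pair). *Dmbt1*, *Pycard* and *Reg1* were the other 3 called. The antimicrobial lectins *Reg3b* and *Reg3g* were not called by edgeR, with 3532, 1519 and 1127 CPM of *Reg3g* in the crypt-labelled and 4059, 1423 and 1389 CPM in the villus-labelled libraries (0.16 ± 0.27, adjusted p = 0.662). *Reg3b* stood at 12178, 9022 and 6629 CPM against 12843, 7419 and 3951 CPM (0.61 ± 0.31, adjusted p = 0.136) and was called higher in the crypt-labelled libraries by DESeq2 (0.58 ± 0.18, adjusted p = 0.00501). For both genes the LFD sham libraries were the highest of either fraction.

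MHC class II genes combined a difference between pools with one between fractions. Of 7 genes, 5 were called higher in the crypt-labelled libraries (median 1.20), although the levels of the fractions overlapped, since both LFD sham libraries stood far above the other 4. *Cd74*, the invariant chain, stood at 594, 69.1 and 49.1 CPM in the crypt-labelled and 393, 33.2 and 23.2 CPM in the villus-labelled libraries (1.20 ± 0.19, adjusted p = 0.00217). Without the pool as a block, *Cd74*, *H2-Aa*, *H2-Ab1* and *H2-Eb1* were not called (adjusted p = 0.556, 0.577, 0.493 and 0.465).

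Markers of position along the length of the intestine were also read, since the fractions came from the same segments. Of 4 distal genes, *Cubn*, *Slc10a2* and *Amn* were called higher in the crypt-labelled libraries, and *Fabp6*, the ileal bile acid binding protein, was not (22.1, 30.7 and 48.7 CPM against 15.6, 33.3 and 59.9 CPM, 0.31 ± 0.21, adjusted p = 0.253). *Slc10a2*, the ileal bile acid transporter, was at 4.92, 6.11 and 7.52 CPM against 2.18, 4.40 and 2.01 CPM (1.48 ± 0.26, adjusted p = 0.0035). With at most 10% mitochondrial UMIs edgeR called 0 of the 4, with 3 at an unadjusted p under 0.05 (adjusted p = 0.054 for *Cubn*, 0.0792 for *Slc10a2* and 0.112 for *Amn*). Of 4 proximal genes tested, edgeR called the iron exporter *Slc40a1*, higher in the villus-labelled libraries (-0.87 ± 0.30, adjusted p = 0.041, 0.105 without the HFD VSG pair and 0.333 without the LFD sham pair), at no more than 2.19 CPM in any library. DESeq2 did not call it (adjusted p = 0.0691), nor did edgeR with at most 10% mitochondrial UMIs (0.402).

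Summed levels of genes of cells other than epithelium varied between libraries, and those of B and plasma cells were higher in the villus-labelled library of each pool at the limit of 20% mitochondrial UMIs. Genes of intraepithelial lymphocytes summed to 367, 305 and 135 CPM in the crypt-labelled and 1468, 8.52 and 1088 CPM in the villus-labelled libraries, so they were higher in the villus-labelled library of LFD sham and HFD VSG and nearly missing from that of HFD sham. Neither edgeR nor DESeq2 called any of the 16, and 0 had an unadjusted p under 0.05 by either tool (median -0.66). *Cd3g*, a chain of the T cell receptor complex, stood at 14.2, 13.5 and 3.66 CPM against 56.1, 0.155 and 32.3 CPM (-0.65 ± 3.03, adjusted p = 0.888). Without the HFD sham pair it was called (adjusted p = 3.42e-23, from 2 pairs and so 1 residual degree of freedom). Genes of B and plasma cells summed to 1.72, 47.0 and 1.70 CPM in the crypt-labelled and 166, 141 and 9.0 CPM in the villus-labelled libraries, with 0 of 6 tested genes called or at an unadjusted p under 0.05 by edgeR, and 2 called by DESeq2. Under a limit of 10% mitochondrial UMIs the HFD sham pool turned, to 180.2 CPM in the crypt-labelled and 2.75 CPM in the villus-labelled library. Myeloid genes summed to between 0.763 and 4.39 CPM and stromal and vessel genes to between 2.48 and 9.89 CPM, and edgeR and DESeq2 called 0 of the 4 tested, with 1 at an unadjusted p under 0.05 by either tool, and *Col1a1*, *Col1a2*, *Col3a1*, *S100a8* and *S100a9* were at or near 0 in every library. Red cell genes reached 58.1 CPM in the HFD VSG villus-labelled library and at most 0.903 CPM in the other 5.

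Signs of cell damage and of handling also differed. The 13 mitochondrial protein genes summed to 127140.0, 119094 and 123294 CPM in the crypt-labelled and 97235, 107761 and 78109.7 CPM in the villus-labelled libraries, higher in the crypt-labelled library of each pool (median 0.70). Of the 13, edgeR called 1, *mt-Nd3*, and DESeq2 called 11 higher in the crypt-labelled libraries. The passing barcodes were themselves chosen by their mitochondrial share, so the filter limits these levels and calls. In all called barcodes the 13 genes summed to 191658, 210048 and 185846 CPM against 162694, 196856 and 97313 CPM. There edgeR called 0 of the 13 (median 0.66). Of 7 transcripts that mark damaged droplets or nuclei, 3 were called higher in the crypt-labelled libraries, and *Kcnq1ot1* higher in the villus-labelled ones (-1.15 ± 0.21, adjusted p = 0.00468). *Gm42418*, which overlaps ribosomal RNA, ran from 72266, 62574 and 13521 CPM in the crypt-labelled to 51234, 41808 and 8307 CPM in the villus-labelled libraries (0.89 ± 0.35, adjusted p = 0.0675). Among 16 immediate early and heat shock genes, 7 were called higher in the crypt-labelled libraries, among them *Fos* (0.97 ± 0.24, adjusted p = 0.0108, 0.0551 without the HFD VSG pair and 0.177 without the LFD sham pair). The heat shock genes *Hspa1a*, *Hspa1b* and *Hsph1* were called higher in the villus-labelled libraries, *Hspa1a* at 9.56, 4.57 and 1.47 CPM against 45.1, 38.3 and 5.09 CPM (-2.07 ± 0.24, adjusted p = 0.00176). When mitochondrial UMIs were limited to 10%, the calls of these 3 were lost (adjusted p = 0.128, 0.266 and 0.204), and edgeR called 2 of the 16 higher in the crypt-labelled and 0 in the villus-labelled libraries. The fold changes of *Hspa1a*, *Hspa1b* and *Hsph1* were then -1.92, -1.73 and -0.48. The part of damage and handling in the other results was not tested.

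A stricter limit on mitochondrial UMIs left fewer calls over all genes, in the crypt lists and in most others. At most 10% in place of 20% kept 25.7%, 28.6% and 26.5% of the passing barcodes of the crypt-labelled and 50.7%, 40.9% and 81.1% of those of the villus-labelled libraries. With that limit the stem cell genes summed to 756, 636 and 1107 CPM in the crypt-labelled and 1518, 793 and 995 CPM in the villus-labelled libraries, edgeR called 0 of 19, with 5 at an unadjusted p under 0.05, and the median was -0.33. *Lgr5* turned to 0.11 (adjusted p = 0.828), and *Olfm4* was no longer called (adjusted p = 0.496). Paneth cell genes reached 73694, 47727 and 58593 CPM against 176107, 112406 and 21714 CPM, now higher in the crypt-labelled library of HFD VSG, with 0 called and 0 at an unadjusted p under 0.05. Goblet cell genes changed sides in LFD sham and HFD VSG, at 23634, 9247 and 14283 CPM against 17771, 22305 and 9056 CPM, again with 0 called and 0 at an unadjusted p under 0.05. Mitosis genes stayed higher in the villus-labelled library of every pool, with 4 of 25 called (median -0.70). The absorptive lists stayed on the crypt-labelled side, with 18 of 20 brush border, 14 of 21 fat absorption and 4 of 9 villus-tip genes called. Over all genes the stricter limit lowered the calls as well, from 3245 to 823 higher in the crypt-labelled and from 2939 to 208 in the villus-labelled libraries. Fewer calls in a list at this limit are therefore not particular to that list. Of the 90 named genes that were called, 52 lost their call under it with the direction unchanged, *Lgr5* lost it with the direction reversed, and 37 kept it. *Mki67*, *Sox9*, *Agr2*, *Spink4*, *Nt5e* and *Cubn* were among those that lost it (adjusted p = 0.419, 0.175, 0.245, 0.267, 0.0537 and 0.054). In that order the fold changes at this limit were -0.52, -0.52, -0.70, -0.76, 2.70 and 3.21, so *Nt5e* and *Cubn* lost the call while their differences were still large. *Ncl*, *Tff3*, *Ltc4s*, *Efna1*, *Lypd8*, *Kcnq1ot1* and *Fos* also lost it (0.242, 0.776, 0.0942, 0.179, 0.306, 0.718 and 0.135). *Ada*, *Slc28a2*, *Apoa4*, *Sis* and *Fbl* were among those that kept it. Of the tuft cell genes 0 of 13 tested were called at this limit, with 1 at an unadjusted p under 0.05, and of the villus-base genes 0 of 13, with 3.

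**Figure D3:**
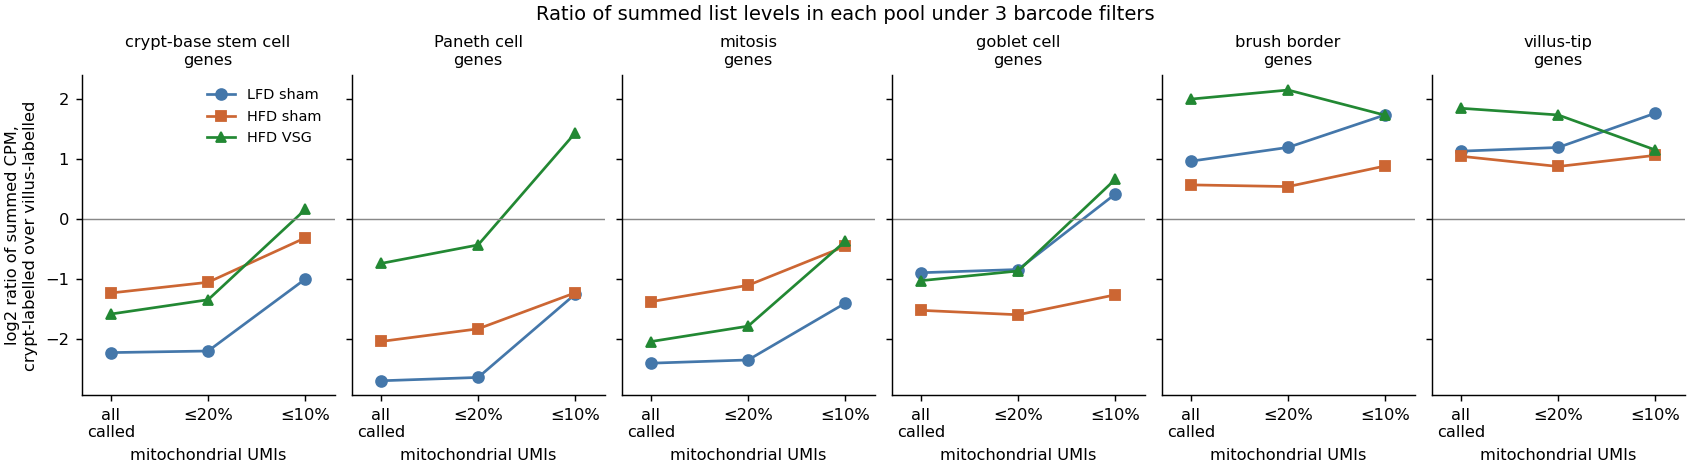
Log2 ratio of the summed CPM of 6 gene lists, crypt-labelled over villus-labelled (y axis), for all called barcodes and for those with at most 20% or at most 10% mitochondrial UMIs (x axis), the last 2 also with at least 750 genes. Each line is a pool. The brush border and villus-tip lists stay above 0 in every pool under each filter. The stem, Paneth and goblet lists cross 0 in HFD VSG at 10%, and the goblet list does so in LFD sham too.

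The same lists were apart in cell-free droplets, the barcodes outside the called cells. Barcodes with fewer than 100 UMIs that were not called as cells held 1801243 to 4593178 UMIs per library. Of 8077 genes tested there, 1805 (22.3%) were called higher in the crypt-labelled and 1923 (23.8%) higher in the villus-labelled libraries, 46.2% in either direction. The stem cell list had 9 of 10 tested genes called higher in the villus-labelled libraries (median -1.90), the mitosis list 15 of 15 (-2.14) and the Paneth list 16 of 16 (-1.95). The brush border list had 20 of 20 called higher in the crypt-labelled libraries (1.34) and the villus-tip list 7 of 8 (1.49). *Olfm4* stood at 33.0, 33.8 and 61.6 CPM in the droplets of the crypt-labelled and 266, 92.5 and 399 CPM in those of the villus-labelled libraries (-2.34 ± 0.23, adjusted p = 1.65e-06). *Lyz1* stood at 974, 753 and 681 CPM against 4610.1, 4456 and 1766 CPM (-1.98 ± 0.26, adjusted p = 3.03e-06), so it was called here and not in the passing barcodes. *Ada* stood at 279.9, 461 and 198 CPM against 55.5, 30.3 and 16.0 CPM (3.36 ± 0.30, adjusted p = 1.95e-05). The medians of these lists had the same sign in the droplets as in the passing barcodes.

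**Figure D4:**
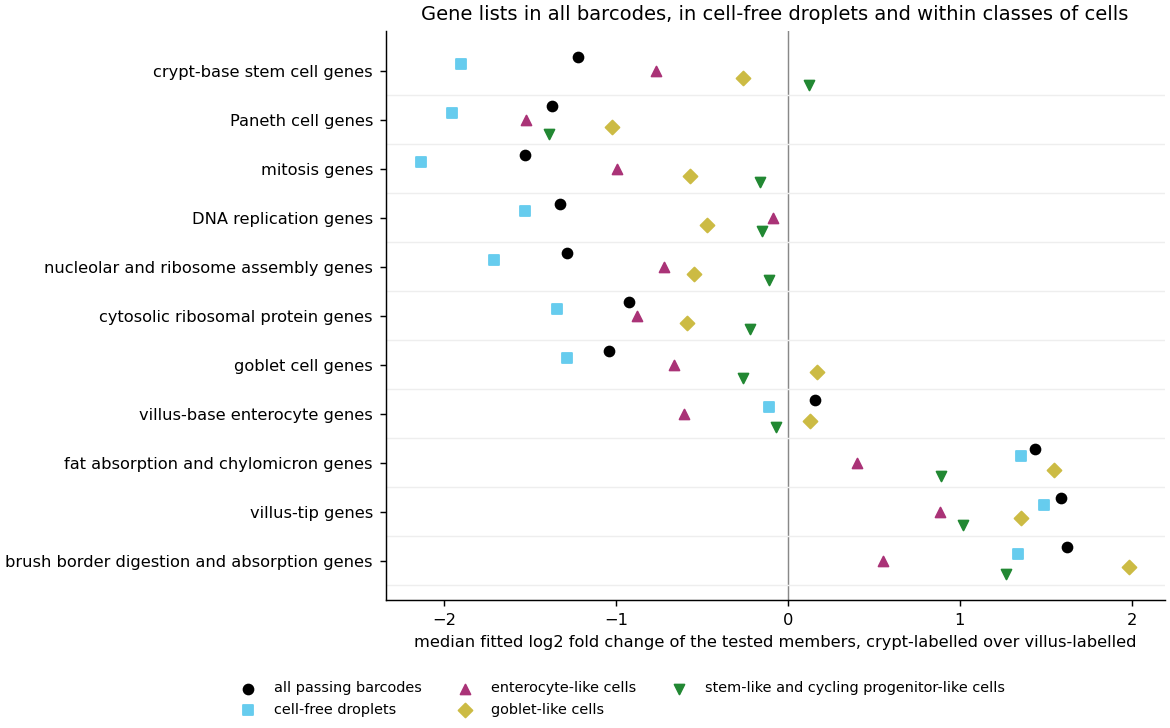
Median fitted log2 fold change, crypt-labelled over villus-labelled (x axis), of the tested members of 11 gene lists (rows) in all passing barcodes, cell-free droplets and 3 classes of cells (symbols). The crypt lists lie left of 0 and the absorptive lists right of 0 in passing barcodes and droplets, and within stem-like and cycling progenitor-like cells the stem, mitosis and DNA replication lists lie near 0.

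The share of barcodes with a UMI was compared after each barcode was thinned to 1500 UMIs, which left out 4 to 44 barcodes per library. An *Olfm4* UMI was then found in 2.39%, 2.68% and 4.28% of barcodes in the crypt-labelled and in 15.1%, 6.71% and 13.6% in the villus-labelled libraries, and before thinning in 5.38%, 5.08% and 9.40% against 32.1%, 14.5% and 37.4%. In the immune-like barcodes, which should lack the gene, the thinned shares were 0.704%, 1.08% and 3.37% in the crypt-labelled and 10.2% and 6.91% in the LFD sham and HFD VSG villus-labelled libraries, with median depths of 2026.5 to 5429 UMIs before thinning. The HFD sham villus-labelled library held 0 of 7 immune-like barcodes with an *Olfm4* UMI, which is too few to compare. An *Ada* UMI was found in 17.3%, 22.1% and 10.6% of barcodes in the crypt-labelled and in 4.37%, 1.94% and 0.686% in the villus-labelled libraries, and before thinning in 42.3%, 56.9% and 37.4% against 11.4%, 5.72% and 6.32%. In immune-like barcodes of the crypt-labelled libraries the *Ada* share was 18.3%, 25.8% and 12.4%, no lower than over all barcodes. In the immune-like barcodes of the LFD sham and HFD VSG villus-labelled libraries it was 2.98% and 0.461%. Lymphocytes can express *Ada* too, so no share of expressing cells was read from these values.

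Within enterocyte-like cells, villus-tip genes were on the crypt-labelled and villus-base genes on the villus-labelled side. These cells were 2631, 1983 and 4004 barcodes of the crypt-labelled and 1498, 2094 and 1127 of the villus-labelled libraries, named by fixed markers. The clusters that held most of the class differed. The largest was led by *Sult6b2* and *H2-Eb1* in the LFD sham crypt-labelled library (39.7% of its enterocyte-like cells) and by *Gm5485* and *Apoc2* in the other crypt-labelled ones (32.6% and 29.8%). In the villus-labelled libraries it was led by *Saa1* and *H2-Aa* in LFD sham (35.2%) and by *Reg1* and *Gm3776* in the other pools (34.0% and 45.3%). Of 12005 genes, 922 (7.68%) were called higher in the crypt-labelled and 1393 (11.6%) higher in the villus-labelled libraries, 19.3% in either direction. Of 8 villus-tip genes tested, 6 were called higher in the crypt-labelled libraries (median 0.89), and of 13 villus-base genes 8 were called higher in the villus-labelled ones (median -0.60), beside a median of -0.01 over all genes. *Ada*, *Nt5e* and *Slc28a2* of the tip list are among the leading genes of clusters of this class, and so are *Reg1*, *Reg3a*, *Reg3b*, *Reg3g*, *Pycard*, *Gsta1* and *Gstm3* of the base list. Both counts include these genes, so they and the values of these genes are a description (*Ada* 2.13 ± 0.38, *Nt5e* 2.50 ± 0.29, *Slc28a2* 2.11 ± 0.37 and *Reg1* -1.55 ± 0.19). *Klf4* stood at 350.0, 304 and 348 CPM against 202, 208 and 109 CPM (1.02 ± 0.18, adjusted p = 0.00543). *Lypd8* stood at 492, 598 and 790.0 CPM against 1238, 1219 and 2604 CPM (-1.34 ± 0.19, adjusted p = 0.00265), with the fractions apart in every pool. *Nlrp6*, an inflammasome sensor, stood at 199, 238 and 227 CPM against 337, 365 and 319 CPM (-0.60 ± 0.12, adjusted p = 0.00968), although over all passing barcodes it was level (-0.08 ± 0.19).

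Brush border genes were called higher in the crypt-labelled libraries in 10 of 20 cases within the class (median 0.55), against 20 of 20 over all passing barcodes, and *Sis* was not called (9633, 5411 and 6434 CPM against 8695, 5401 and 3744 CPM, 0.33 ± 0.18, adjusted p = 0.234). Of the fat absorption genes 9 of 21 were called in that direction and 1 in the other (median 0.40). Paneth cell genes, which enterocytes do not make, were called higher in the villus-labelled libraries in 15 of 16 cases, *Lyz1* at 69.9, 53.8 and 40.6 CPM against 288, 237 and 59.5 CPM (-1.57 ± 0.29, adjusted p = 0.0187). Among called genes of the class with a mean of at least 20 CPM and the same sign in the 3 pools, the 5 largest differences were those of *Nt5e*, *Ada*, *Pmp22*, *Slc28a2* and *Clca4a* toward the crypt-labelled side, with *Pmp22* at 2.12 ± 0.40 and *Clca4a* at 2.09 ± 0.46. Toward the villus-labelled side they were *Gm14851* (-1.98 ± 0.15), *AY761184* (-1.75 ± 0.20), *Spink4* (-1.71 ± 0.14), *Defa24* (-1.67 ± 0.21) and *Defa30* (-1.62 ± 0.24). *Pmp22* and *Clca4a* are also among the leading genes of clusters of this class, so their values are a description too. In the cell-free droplets of the same libraries *Lyz1* differed in the same direction. The median depth of these cells was 14882 to 17579.5 UMIs in 5 libraries and 33846 UMIs in the HFD VSG villus-labelled one. Without the pool as a block edgeR called 0 genes in this class, and 2558 had an unadjusted p under 0.05. With 10% of each library's cell-free profile subtracted, 599 genes were called higher in the crypt-labelled and 716 in the villus-labelled libraries. The subtracted share was the same in every library, here and in the other classes. The study estimated a background share for each library, and its estimates were highest for the HFD sham libraries. Subtraction with a share set for each library was not tested. With cells thinned to 1500 UMIs the counts were 435 and 557.

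**Figure D5:**
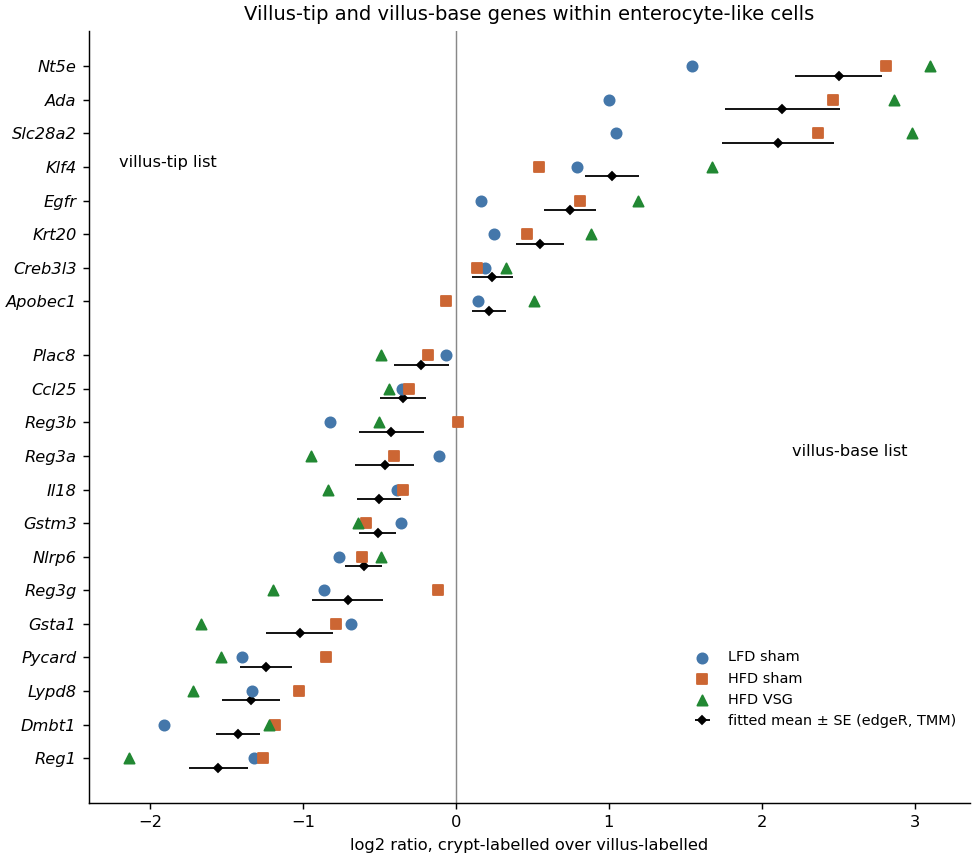
Paired log2 ratio of CPM, crypt-labelled over villus-labelled (x axis), within enterocyte-like cells for all tested genes of the villus-tip list (upper rows) and the villus-base list (lower rows). Coloured points are the pools and black diamonds the edgeR estimate ± SE from the 3 pairs. The estimates of the tip genes lie right of 0, from 0.22 to 2.50, and those of the base genes left of 0, from -1.55 to -0.23.

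Within goblet-like cells, genes of enterocytes were higher in the crypt-labelled libraries. The class held 156, 99 and 192 barcodes of the crypt-labelled and 395, 424 and 365 of the villus-labelled libraries. Of 10583 genes, 1176 (11.1%) were called higher in the crypt-labelled and 608 (5.75%) higher in the villus-labelled libraries, 16.9% in either direction. All 20 brush border genes and 19 of 20 fat absorption genes tested were called higher in the crypt-labelled libraries (medians 1.99 and 1.55). *Apoa4* stood at 1823, 2564 and 2738 CPM against 317, 487 and 159 CPM (3.06 ± 0.26, adjusted p = 4.06e-07) and *Selenop* at 1155, 1100.3 and 1145 CPM against 214, 187 and 85.6 CPM (2.97 ± 0.21, adjusted p = 2.33e-08). With *Cubn* (3.27 ± 0.39), *Slc5a12* (3.04 ± 0.34) and *Bst1* (3.02 ± 0.19) these were the 5 largest differences in that direction, chosen in the same way. In the other direction they were *Gm14851* (-1.94 ± 0.22), *Defa22* (-1.41 ± 0.17), *Defa24* (-1.21 ± 0.23), *Lsm7* (-1.14 ± 0.19) and *Acot1* (-1.10 ± 0.19). Paneth cell genes were called higher in the villus-labelled libraries in 10 of 19 cases and in the crypt-labelled in 1. Both sets were listed as genes of other cell types. In the cell-free droplets 16 of 16 tested Paneth cell genes were called higher in the villus-labelled libraries. All 20 brush border genes were called higher in the crypt-labelled ones there. The part of the droplets in these values was not tested. Of the villus-labelled goblet-like barcodes 81.8%, 84.2% and 96.2% lay in the cluster led by *Agr2* and *Spink4*, against 43.6%, 42.4% and 62.5% of the crypt-labelled ones, and the others in a cluster led by *Clca1* and *Fcgbp*, so mucus genes were not compared within the class.

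Stem-like and cycling progenitor-like cells had the fewest genes called of the classes compared. Together they were 118, 107 and 290 barcodes of the crypt-labelled and 707, 288 and 1051 of the villus-labelled libraries. Of 10906 genes, 234 (2.15%) were called higher in the crypt-labelled and 22 (0.202%) higher in the villus-labelled libraries, 2.35% in either direction, and 983 had an unadjusted p under 0.05. Of the mitosis, DNA replication and nucleolar lists edgeR and DESeq2 called 0 genes in either direction (medians -0.16, -0.15 and -0.11). An unadjusted p under 0.05 was found by edgeR for 2, 3 and 0 of their genes and by DESeq2 for 1, 0 and 0. *Olfm4*, which leads the stem-like cluster, stood at 1661, 1959 and 1968 CPM in the crypt-labelled and 1769, 1659.8 and 1576 CPM in the villus-labelled libraries, and the fractions overlapped (0.10 ± 0.21, adjusted p = 0.93). *Lgr5*, another leading gene of that cluster, stood at 64.8, 45.7 and 69.4 CPM against 41.6, 31.7 and 32.7 CPM (0.71 ± 0.15, adjusted p = 0.00848), higher in the crypt-labelled libraries and so opposite in sign to the sum over all passing barcodes. Since *Lgr5* leads that cluster, this is a description. Stem-like cells were 48 of the 118, 49 of the 107 and 157 of the 290 barcodes in the crypt-labelled and 271 of the 707, 98 of the 288 and 519 of the 1051 in the villus-labelled libraries, a higher share in the crypt-labelled library of each pool, and their part in the difference was not tested. Enterocyte genes were again among those called, with 14 of 20 brush border and 15 of 20 fat absorption genes higher in the crypt-labelled libraries, *Apoa4* at 839, 1313 and 1781 CPM against 217, 339 and 107 CPM (2.58 ± 0.35, adjusted p = 0.00367). It led the 5 largest differences in that direction, again with a mean of at least 20 CPM, ahead of *Ada* (2.45 ± 0.29), *Apoc2* (2.36 ± 0.30), *Slc5a4b* (2.31 ± 0.21) and *Slc13a2* (2.13 ± 0.31). Paneth cell genes were called higher in the villus-labelled libraries in 11 of 16 cases, *Defa24* at 426, 318 and 222 CPM against 1519, 1590.2 and 378 CPM (-1.70 ± 0.22, adjusted p = 9.35e-05). The others of the 5 largest in that direction were *Gm14851* (-2.16 ± 0.20), *AY761184* (-1.83 ± 0.30), *Defa30* (-1.67 ± 0.22) and *Lyz1* (-1.47 ± 0.28). With 10% of the cell-free profile subtracted, 52 genes were called higher in the crypt-labelled and 1 in the villus-labelled libraries.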

How the data were processed

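Single-cell libraries of 3 pools of mice, 1 crypt-labelled and 1 villus-labelled library each, were made with 10x Genomics 3' v3.1 chemistry. Values are UMI counts per gene and barcode, which the authors deposited as raw and filtered matrices made with Cell Ranger 6.0.0 on mm10, with no normalisation. Of 32285 gene identifiers, 32235 were matched to GENCODE vM21 for positions (GRCm38). Filtered barcodes with at least 750 genes and at most 20% mitochondrial UMIs were kept, their counts were summed per library, and sums were given as CPM.

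Genes that passed filterByExpr were tested with edgeR 4.0.16 (quasi-likelihood, TMM, pool as a block, 2 residual degrees of freedom) under R 4.3.3, with Benjamini-Hochberg adjustment. The pairing came from the design, since both libraries of a pool were made from the same mice. With 1 library of each label per pool, p-values measure only the spread of the paired differences between these pools. Exact 95% intervals cover counting error only, and a ratio rested on a floor of 3 UMIs where a list was at or near 0. Depth was 38767388 to 144932811 UMIs per library in passing barcodes. The fitting script was tested on simulated data with less spread between libraries and fewer changed genes than these. That test cannot show the error rate here.

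Cells were clustered with scanpy 1.11.5 (2000 variable genes, 30 components, 20 neighbours, leidenalg 0.10.2 at resolution 1). A cluster was named from fixed markers when over 50% of a type's markers were at least 2-fold higher and found in at least 10% of its cells. These thresholds were set after the data were seen. Enteroendocrine, Paneth and tuft clusters were not compared. Doublets were scored and kept, and the highest scores, 6.21% to 9.61% of the called barcodes, were removed as an alternative. Members and gene lists were chosen with earlier results of these data known.

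The genes named were the 10 largest changes in each direction (called, mean of at least 20 CPM, same sign in 3 pools), fixed landmark genes, the 4 most abundant members of each list, any member called against the majority of its list, and the 5 largest changes in each direction within a class. Other members were named after their values were seen, to account for counts. Not every gene that this rule names is reported here. Alternatives covered scaling, DESeq2 1.42.0, the low-count filter, the block, leaving out each pool, barcode filters, immune-like barcodes, doublets, thinning, clustering and subtraction of cell-free RNA. For the gene lists, the limit of 10% mitochondrial UMIs, library size scaling and DESeq2 were added after the data were seen.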

Additional observations from a re-analysis of the deposited data

Results flagged for a closer look

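The summed level of 16 genes of intraepithelial lymphocytes differed in direction between pools. On the log2 scale of crypt-labelled over villus-labelled it was -2.0 in LFD sham, 5.16 in HFD sham and -3.01 in HFD VSG. With 1 library of either label per pool, the difference between pools was not tested. The HFD sham villus-labelled library held 8.52 CPM of these genes, against 135 to 1468 CPM in the other 5.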

How the results depend on the processing

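For all passing barcodes, 3245 genes were called higher in the crypt-labelled and 2939 in the villus-labelled libraries. At most 10% mitochondrial UMIs gave 823 and 208, library size scaling 1426 and 4336, and thinning to 1500 UMIs 1807 on the villus-labelled side. Leaving out a pair gave 1074 to 3992 and 1449 to 4103, with the lowest without the HFD VSG pair and without the LFD sham pair. Of 90 named genes called, 22 kept their call under every alternative, and *Lgr5* reversed to 0.11 at 10% mitochondrial UMIs (adjusted p = 0.828 by edgeR). The causes of these changes were not tested.

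Without the replicate block, the calls were 1849 and 1951 in passing barcodes, 643 and 937 in droplets, 0 and 0 in enterocyte-like cells, 561 and 89 in goblet-like cells and 45 and 0 in stem-like and cycling cells, and 32 named genes lost their call.

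In droplets, DESeq2 gave 1137 and 1084, 10 to 50 UMIs 145 and 164, and leaving out a pair 1397 to 2136 and 1389 to 2273. In enterocyte-like cells, subtraction of cell-free RNA gave 599 and 716, thinning 435 and 557, DESeq2 926 on the villus-labelled and library size scaling 527 on the crypt-labelled side, and leaving out a pair 673 to 1047 and 861 to 1557 (861 without the LFD sham pair). In goblet-like cells, DESeq2 gave 737 and 224, thinning 452 and 357, subtraction 371 on the villus-labelled and library size scaling 733 on the crypt-labelled side, and leaving out a pair 742 to 1059 and 205 to 569, lowest without the LFD sham pair. In stem-like and cycling cells, subtraction gave 52 and 1, library size scaling 116 and 5, thinning 91 on the crypt-labelled side, DESeq2 9 and no low-count filter 49 on the villus-labelled side, and leaving out a pair 234 to 281 and 20 to 43 (43 without the HFD VSG pair).

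List medians are given where they moved by more than 1 SD of the 3 pools' medians. At 10% mitochondrial UMIs they were those of stem cell (-0.33), DNA replication (-0.59), mitosis (-0.70), nucleolar (-0.59), lineage (-0.44), axis factor (0.24), Eph (-0.41), Bmp (0.48), goblet (-0.22) and mitochondrial genes (0.28). Within that spread lay Paneth genes (-0.35 from -1.37) and 3 lists that changed sign, enteroendocrine (0.70 from -0.37), lymphocyte (0.60 from -0.66) and stroma genes (0.32 from -0.53). In droplets they were stem cell (-1.90), nucleolar (-1.71), axis factor (0.22), Eph (-0.034), Bmp (0.54), villus-base (-0.11), proximal (0.078), mitochondrial (0.37) and damage genes (0.32). With library size scaling they were lineage (-1.50), axis factor (0.28), Bmp (0.43), villus-base (-0.14), MHC class II (0.91), damage (0.58) and immediate early genes (0.18). With all called barcodes they were lineage (-1.48) and villus-base (-0.045), and with thinning Bmp (0.57) and proximal (0.21).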
